A study of Homo sapiens with 12 samples.

Results

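PINCH proteins (LIMS1, LIMS2 and LIMS3), integrin-linked kinase (ILK), the parvins (PARVA and PARVB), the PINCH-binding Ras suppressor RSU1, the kindlins (FERMT1 and FERMT2) and talin-1 (TLN1) build the link between integrins and the actin cytoskeleton. PINCH, ILK and parvin form a ternary complex at the cytoplasmic face of integrin adhesions, in which ILK bridges the other two and parvin contacts actin. Talin and the kindlins bind integrin beta tails and together switch integrins to the form that binds the extracellular matrix, which epithelial cells need for attachment and spreading. Changes in the amount of any of these transcripts were examined here in H358 cells, a human lung adenocarcinoma line.

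The set held these 10 genes, of 16557 genes named on the arrays, and every probe whose RefSeq transcript belongs to one of them was taken. There were 16 such probes, 1 for each of 5 genes, 2 for each of 4 genes and 3 for RSU1. LIMS3 was chosen by the rise of its probe A_23_P365685 between these same arrays, so its values are given as a description and carry no test. The other 9 genes were chosen as its family and its partners, with results of these data already known. Of the 16 probes, 13 passed the filter on dim probes and 3 did not (RSU1 A_23_P149812, RSU1 A_23_P149813 and FERMT1 A_24_P365506). Each of the 10 genes kept at least 1 probe.

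The data are 12 Agilent 44 k arrays, each hybridised with 1 dye. All RNA came from H358/Tet-On/SRSF2, a single clone whose SRSF2 transgene, coding for a serine/arginine-rich splicing factor, stands under a Tet-responsive promoter. The 6 control arrays come from this same clone, labelled untreated, and the 6 SRSF2 over-expression arrays from cells given 1 µg/mL doxycycline. Both conditions were taken at 24 hours. The labels do not say whether the arrays of a condition come from separate cultures, and the study's supplement gives 2 arrays for each of 3 labelings of a condition, so the p-values measure the spread between arrays, which may be technical. An effect of doxycycline itself and an effect of SRSF2 cannot be told apart by these labels.

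Between 54.2% and 68.0% of the gene spots of an array were well above background, by the scanner software's own flag, and no gene spot was saturated. The 12 arrays lie on 3 slides, each holding 2 arrays of both conditions. All 6 epithelial markers examined (EPCAM, CDH1, KRT8, KRT18, KRT19 and CLDN4) had a probe well above background on all arrays, as did the lung markers NKX2-1 and SCGB1A1, while the lung marker SFTPB was well above background on 2 arrays. Of the mesenchymal markers, VIM was well above background on all arrays and COL1A2, DCN and PDGFRB on none. Of the leukocyte markers, PTPRC was so on no array, CD3E on 10 with its brighter probe and CD14 on all 12. Values below are log2 processed signals relative to the 75th percentile of each array, so a difference of 1 is a 2-fold change. They rank arrays for one probe and do not rank probes or genes against each other.

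The targeted gene was examined first. The SRSF2 probe A_23_P77776 lay between 3.74 and 4.03 in the control arrays (median 3.96) and, in those labelled SRSF2 over-expression, between 2.29 and 2.56 (median 2.51). The difference was -1.46 (SE 0.063, n = 6 per condition, limma adjusted p = 1.68e-09), against the direction of the label, and the ranges did not overlap. Whether this probe detects the SRSF2 transcript made from the transgene is not given in the sources used here. The study also followed SRSF2 by western blot and RT-PCR, which were not analysed here. Every rise and fall below is that of the arrays labelled SRSF2 over-expression relative to the arrays labelled control. In bulk RNA, fewer cells with a transcript and less transcript per cell cannot be told apart.

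Among the PINCH genes, LIMS3 and LIMS1 moved in opposite directions. LIMS3 encodes a PINCH-like protein and is one of several near-identical gene copies, for which the RefSeq table also lists LIMS4 and LIMS3L as names. The LIMS3 probe lay between -4.38 and -4.06 in the control arrays (median -4.17) and between 0.69 and 0.97 in the SRSF2 over-expression arrays (median 0.84). The control arrays were close to background, which control array 3 did not clear, and all 6 SRSF2 over-expression arrays were far above it. The difference between the means was 5.01, or 32.1-fold, the change for which LIMS3 was chosen, and 3 of the 24330 probes tested rose by more. On slides 1, 2 and 3 taken alone the difference was 4.99, 4.92 and 5.12.

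The size of the LIMS3 change depends on how its dim control spots are treated. The median intensity of the spot, before any background was taken off, was 97.0 to 130 scanner units in the control arrays and 1747 to 2258 in the SRSF2 over-expression arrays. The local background around the spot was at most 34.5 units on any array. Without background subtraction the difference fell to 4.01, or 16.2-fold, and with the normexp background correction to 2.81, or 7.01-fold. In the 17 other settings it lay between 4.93 and 5.21.

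**Figure D1:**
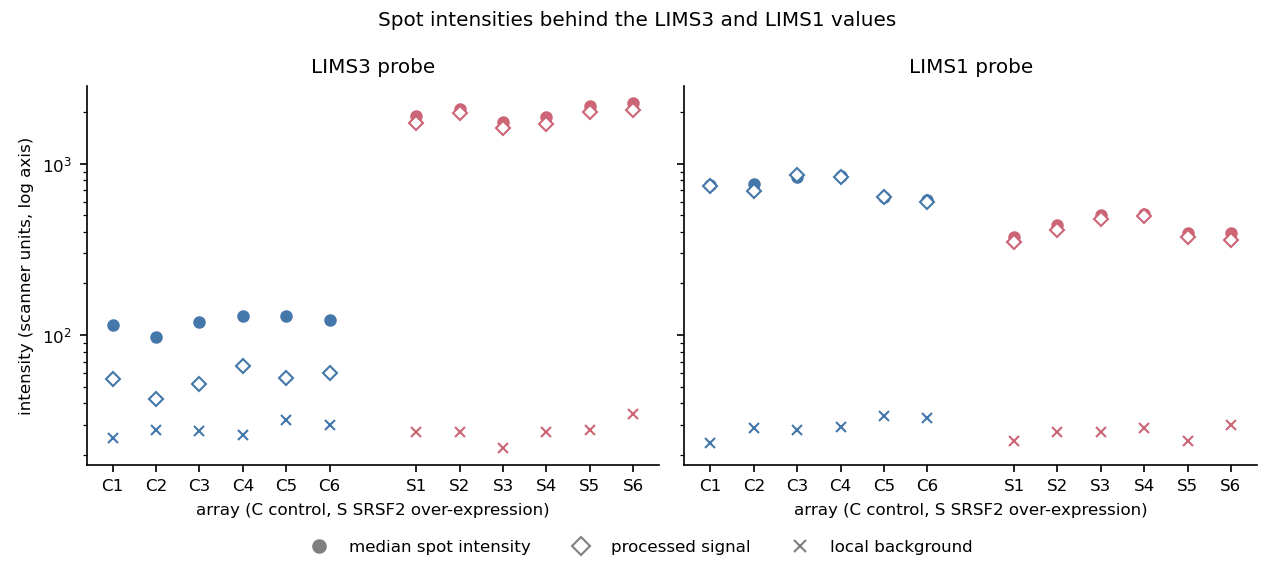
Intensity in scanner units on a log axis for the LIMS3 probe (left) and the LIMS1 probe (right) on each of the 12 arrays, C for control and S for SRSF2 over-expression. Filled circles are median spot intensities, open diamonds are processed signals after background subtraction, and crosses are local backgrounds. The LIMS3 spot reads 97.0 to 130 in the control arrays and 1747 to 2258 in the SRSF2 over-expression arrays, while LIMS1 falls.

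LIMS1 encodes PINCH-1, the adaptor that joins ILK to RSU1 and to growth factor signalling. Its probe A_23_P210358 lay between -0.78 and -0.19 in the control arrays (median -0.35) and between -1.55 and -1.07 in the SRSF2 over-expression arrays (median -1.45). The lowest control values were the 2 arrays of slide 3 and the highest SRSF2 over-expression values the 2 arrays of slide 2, yet the conditions did not overlap. LIMS1 fell by 0.90 on the log2 scale (SE 0.12, limma adjusted p = 4.68e-05), a 1.86-fold decrease, and 9.60% of all probes tested changed by more in size. It fell by 1.19, 0.74 and 0.76 on slides 1, 2 and 3. It was the only member probe past the test under all 19 alternative settings, with adjusted p between 1.14e-06 and 0.0102.

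LIMS2 encodes PINCH-2, the second PINCH able to enter the ILK complex. Its probe A_23_P142796 was dim, with 4 control arrays and 5 SRSF2 over-expression arrays well above background. The control arrays lay between -4.23 and -0.87 (median -3.86) and the SRSF2 over-expression arrays between -4.55 and -2.71 (median -4.11). Control array 4 stood far above the other 5 control arrays, which reached -3.08 at most, and the local background around its spot was 145.5 units, the highest of the 12 arrays. This background was high on all arrays of slide 2. It was 114 on control array 3, and 64.5 and 97 on SRSF2 over-expression arrays 3 and 4. On slides 1 and 3 it was at most 45.5. The difference of -0.50 (SE 0.54) did not pass the test (limma adjusted p = 0.458), and without control array 4 it was 0.00077 (adjusted p = 0.999).

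The probe sequences are not among the columns of the scanner files used here, so which of the LIMS3 copies the LIMS3 probe detects, and whether it also detects part of LIMS1, was not tested. Only sequence around gene starts could be compared, from RefSeq (build GRCh38.p14). Its table of windows from 250 bases before to 50 bases after each gene's start held 7 of the 10 members. LIMS3, PARVA and FERMT1 have no entry, so LIMS3 itself was not compared. Such windows do not show how alike the transcripts are where a probe binds. The table does hold LIMS4, a copy in the list of related genes to which the files assign no probe, and the readthrough gene LIMS3-LOC440895. These last 2 windows, at chr2:110473026-110473325 (minus strand) and chr2:109898182-109898481 (plus strand), differ at 0 of 300 bases and are printed once. The first windows of LIMS1 (chr2:108534220-108534519, plus strand) and FERMT2 (chr14:52951001-52951300, minus strand) are shown beside them because these members had the greatest changes among those tested. Capitals mark the GC box GGGCGG and the TATA motif TATAAA, each searched on both strands with overlapping matches counted.
LIMS4 and LIMS3-LOC440895: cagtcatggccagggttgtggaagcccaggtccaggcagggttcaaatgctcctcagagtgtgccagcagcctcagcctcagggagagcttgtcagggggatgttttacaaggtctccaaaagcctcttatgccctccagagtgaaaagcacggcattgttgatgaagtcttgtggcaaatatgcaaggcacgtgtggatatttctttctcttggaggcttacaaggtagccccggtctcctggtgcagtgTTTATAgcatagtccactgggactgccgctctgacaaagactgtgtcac
LIMS1: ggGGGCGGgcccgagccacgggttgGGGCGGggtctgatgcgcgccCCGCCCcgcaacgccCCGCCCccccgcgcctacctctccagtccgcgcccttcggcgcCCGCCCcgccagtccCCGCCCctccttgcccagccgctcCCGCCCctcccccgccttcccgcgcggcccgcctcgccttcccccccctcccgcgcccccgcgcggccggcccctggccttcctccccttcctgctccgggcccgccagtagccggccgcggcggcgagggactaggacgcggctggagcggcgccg
FERMT2: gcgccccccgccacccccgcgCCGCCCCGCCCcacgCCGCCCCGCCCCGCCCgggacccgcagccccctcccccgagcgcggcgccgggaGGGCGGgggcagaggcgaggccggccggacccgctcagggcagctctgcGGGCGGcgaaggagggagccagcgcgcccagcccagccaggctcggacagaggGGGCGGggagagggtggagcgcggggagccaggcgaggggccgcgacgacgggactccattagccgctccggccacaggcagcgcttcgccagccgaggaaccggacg

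The window shared by LIMS4 and LIMS3-LOC440895 is 52.7% G or C and has 4 CpG dinucleotides and no GC box. Its 1 TATA match is on the opposite strand and lies after the start, not before it. The LIMS1 window is 83.3% G or C with 45 CpG dinucleotides and 7 GC boxes, and the FERMT2 window is 82.0% G or C with 43 CpG dinucleotides and 8 GC boxes. Of all 35116 windows in the table, 45.0% hold a GC box and 11.5% a TATA match, at any position and on either strand, with a median of 58.7% G or C. RefSeq gives 3 further starts for LIMS1, and which start was used in these cells was not measured.

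ILK, the scaffold of the complex, changed little. Probe A_23_P105066 lay between 0.68 and 0.83 in the control arrays (median 0.71) and between 0.44 and 0.63 in the SRSF2 over-expression arrays (median 0.47), without overlap. It fell by 0.21 (SE 0.052, limma adjusted p = 0.0036), a 1.16-fold decrease. Probe A_24_P406870 ran from 0.73 to 0.94 in the control arrays (median 0.89) and from 0.62 to 0.80 in the SRSF2 over-expression arrays (median 0.74), with overlap through control array 2. It fell by 0.14 (SE 0.051, adjusted p = 0.0303), and this call was lost without slide 2 (adjusted p = 0.0648), without slide 3 (0.177) and without control array 4 (0.0674). With the 2 arrays of one condition on a slide averaged to 1 replicate, neither ILK probe passed (adjusted p = 0.109 and 0.244).

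The parvins, which bind ILK and actin filaments, moved apart. PARVB A_23_P40718 lay between -2.72 and -2.51 in the control arrays (median -2.61) and between -3.21 and -2.91 in the SRSF2 over-expression arrays (median -3.01). These ranges did not overlap, and PARVB fell by 0.42 (SE 0.061, limma adjusted p = 7.52e-05), with falls of 0.40, 0.39 and 0.46 on the 3 slides. PARVA A_24_P124370 lay between -2.31 and -2.18 in the control arrays (median -2.19) and between -2.02 and -1.83 in the SRSF2 over-expression arrays (median -1.94). It rose by 0.29 (SE 0.052, adjusted p = 0.00037), again without overlap. The second PARVA probe, A_23_P47642, had medians of -2.80 and -2.68 and a difference of 0.14 (SE 0.069, adjusted p = 0.109), and its arrays overlapped. On slide 3 alone this second probe differed by -0.07, and without slide 3 it passed the test at 0.24 (adjusted p = 0.0278).

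RSU1 binds PINCH-1 and was first found as a suppressor of Ras transformation. Probe A_23_P138417 lay between 0.41 and 0.60 in the control arrays (median 0.45) and between 0.50 and 0.91 in the SRSF2 over-expression arrays (median 0.83). The 2 SRSF2 over-expression arrays of slide 2, at 0.55 and 0.50, fell within the control range, and the other 4 were above it. RSU1 rose by 0.27 (SE 0.081, limma adjusted p = 0.0109), with rises of 0.40, 0.10 and 0.32 on slides 1, 2 and 3. The call was lost without slide 1 (adjusted p = 0.136), without slide 3 (0.0578) and with arrays averaged by slide (0.121), and was kept with averaged arrays and the slide as a block (0.0391). Of the remaining RSU1 probes, A_23_P149812 was well above background on 2 arrays of each condition and A_23_P149813 on 0 of 12, and neither was tested.

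The kindlins moved in opposite directions. FERMT2 encodes kindlin-2, the kindlin found in most adherent cells and abundant in mesenchymal ones. Its probe A_23_P88347 lay between -1.86 and -1.68 in the control arrays (median -1.78) and between -1.12 and -0.98 in the SRSF2 over-expression arrays (median -1.05). The arrays of each condition were tightly grouped and far apart. FERMT2 rose by 0.72 (SE 0.047, limma adjusted p = 5.98e-08), a 1.65-fold increase, with rises of 0.78, 0.58 and 0.81 on the 3 slides, and 15.9% of all probes tested changed by more in size. With the normexp background correction the rise was 0.24 and did not pass the test (adjusted p = 0.591).

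FERMT1 encodes kindlin-1, the kindlin of epithelia, whose loss causes the skin fragility of Kindler syndrome. Probe A_23_P131935 lay between 2.80 and 3.05 in the control arrays (median 3.02) and between 2.62 and 2.70 in the SRSF2 over-expression arrays (median 2.66). FERMT1 fell by 0.30 (SE 0.056, limma adjusted p = 0.00058), a 1.23-fold decrease, without overlap. The fall was 0.36 and 0.42 on slides 1 and 2 and 0.12 on slide 3, whose control arrays were the lowest 2. The other FERMT1 probe, A_24_P365506, was not tested, with 2 control arrays and 3 SRSF2 over-expression arrays well above background.

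TLN1, the talin that couples integrins to actin in most cells, did not pass the test with either probe. Probe A_24_P196851 ran from -1.24 to -0.86 in the control arrays (median -1.15) and from -1.50 to -0.99 in the SRSF2 over-expression arrays (median -1.26). Its difference was -0.15 (SE 0.090, limma adjusted p = 0.175), and without slide 2 it passed at -0.27 (adjusted p = 0.0414). Probe A_23_P9166 had medians of -2.95 in both conditions and a difference of 0.05 (SE 0.085, adjusted p = 0.652).

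**Figure D2:**
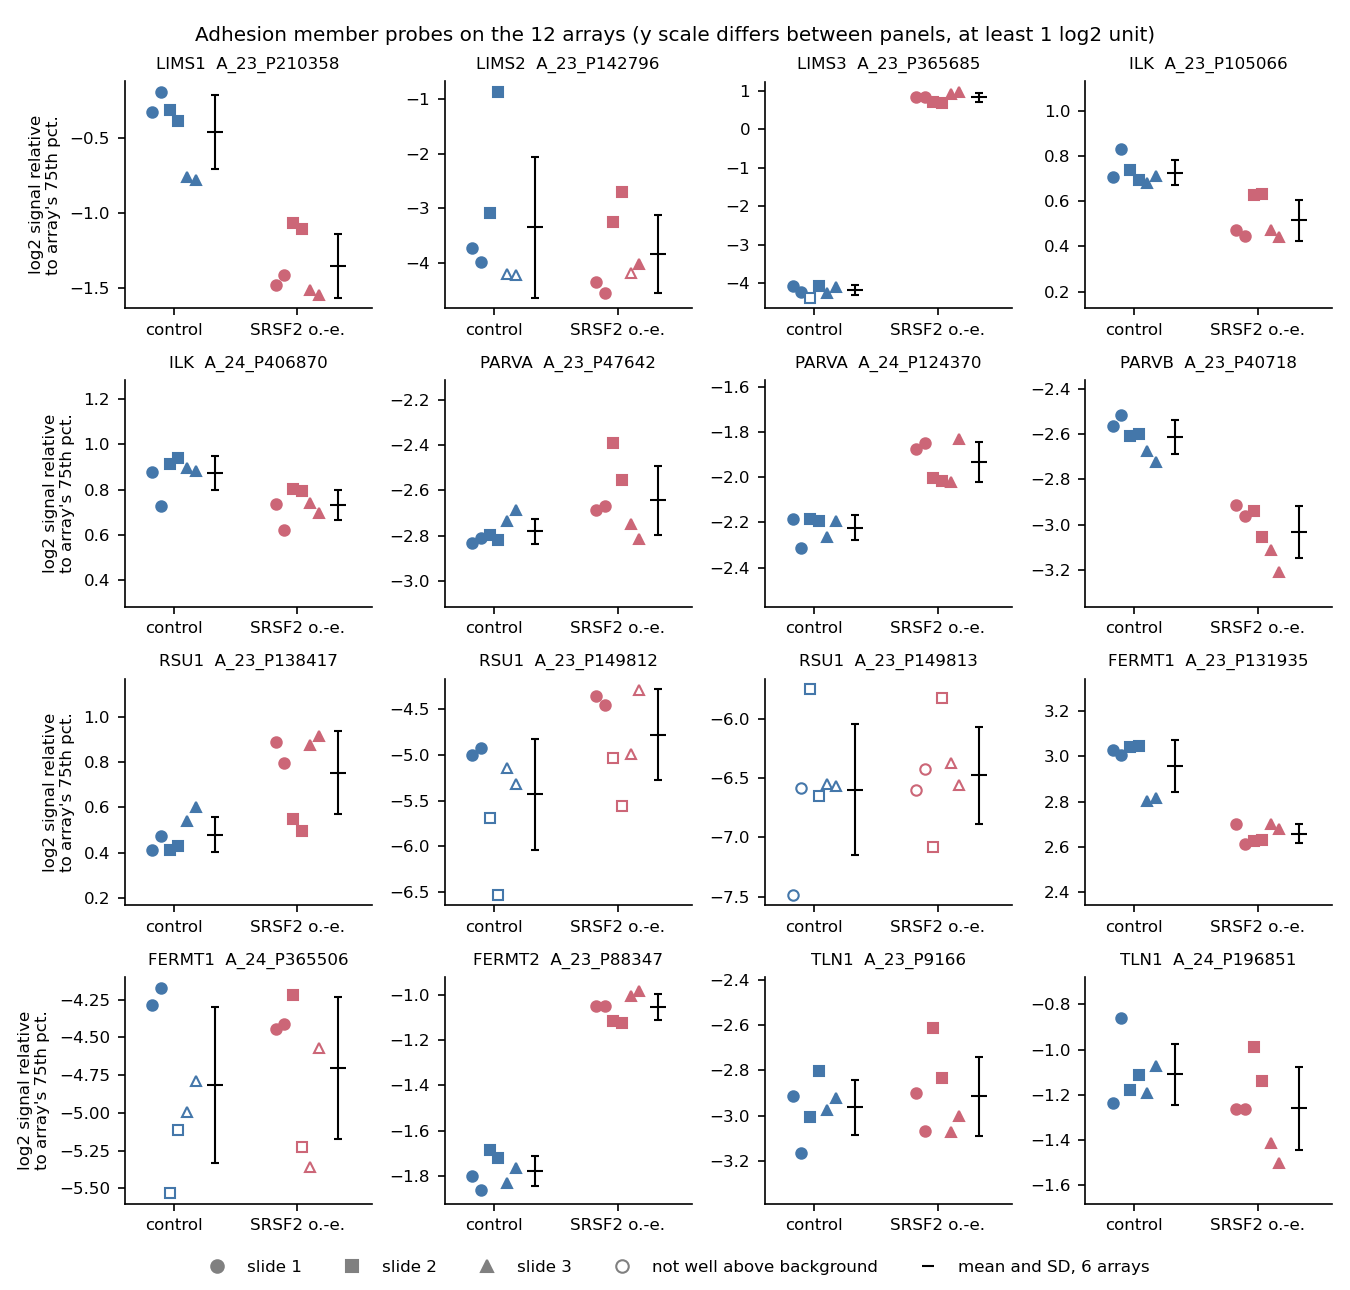
Log2 processed signal relative to the array's 75th percentile for the 16 member probes, 1 panel each, with control arrays in blue and SRSF2 over-expression arrays in red. Marker shapes are the 3 slides, open markers are spots not well above background, and bars are the mean and SD of 6 arrays; the y scale differs between panels. LIMS3 separates by 5.01, LIMS1 and FERMT2 separate in opposite directions, and control array 4 stands alone for LIMS2.

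Counted together, 8 of the 12 member probes tested other than LIMS3 passed limma at an adjusted p of at most 0.05 (66.7%), where 57.7% of all 24330 probes did. Of these 8, 5 fell (LIMS1, PARVB, FERMT1 and both ILK probes) and 3 rose (FERMT2, RSU1 and PARVA A_24_P124370), and over all probes 28.0% fell and 29.7% rose. The values of the conditions did not overlap for 6 of the 12, where 40.5% of 23740 probes with a value on every array did not. None of the 12 passed limma and changed by at least 2-fold, which 7.00% of all probes did. At an unadjusted p under 0.05, 8 of the 12 passed, where 62.0% of all probes did. The methods' t-test likewise gave 0 at 2-fold and 8 at the adjusted threshold, which 56.3% of all probes passed. The median difference of the 12 was -0.15, that of all probes 0.01, and their median size was 0.28 against 0.30. The share of members called was thus near that of the arrays as a whole. The sign was the same on all 3 slides for 8 of the 12, where it was for 74.1% of all probes. LIMS2 was the 1 probe of the 12 that entered the test through a single condition, and of the other 11 the same 8 passed, where 57.4% of such probes did.

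**Figure D3:**
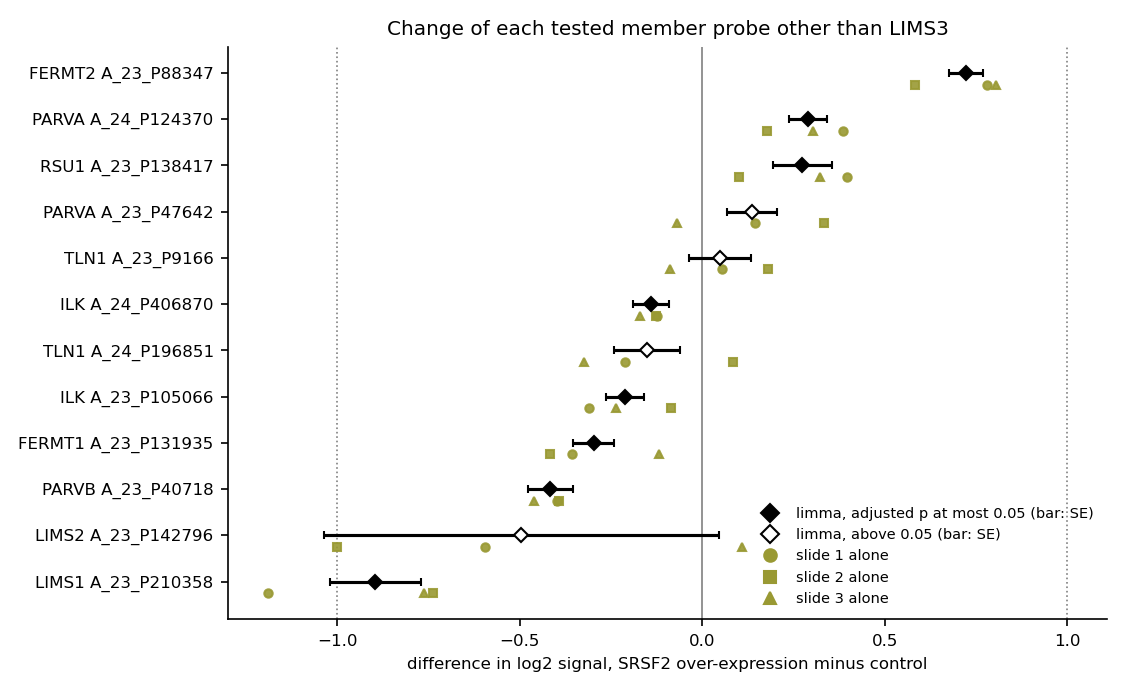
Difference in log2 signal, SRSF2 over-expression minus control, for the 12 member probes tested other than LIMS3. Diamonds with bars are limma estimates and their SE, filled where the adjusted p is at most 0.05, small markers are the differences on single slides, and dotted lines mark 2-fold. FERMT2 at 0.72 and LIMS1 at -0.90 lie farthest from 0, and no probe reaches 2-fold.

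Background correction and scaling moved these counts. Without slide 1, 2 or 3, 7, 8 and 7 of the 12 passed, where 52.9%, 58.2% and 48.3% of all probes did. With the normexp background correction only LIMS1 passed (1 of 12), where 11.6% of all probes did, and PARVA turned to -0.15 and -0.11. With scaling on the 7 spike-in control probes, LIMS1 at -0.69 and FERMT2 at 0.93 passed (2 of 12), where 26.8% of all probes did. That scaling raised the median difference of all probes by 0.21, and ILK A_24_P406870 and TLN1 A_24_P196851 then read 0.07 and 0.06. Without background subtraction 5 of 12 passed, where 50.9% of all probes did. With arrays averaged by slide 5 of 12 passed, where 39.0% did, and with the slide also as a block 6 of 12, where 54.8% did.

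**Figure D4:**
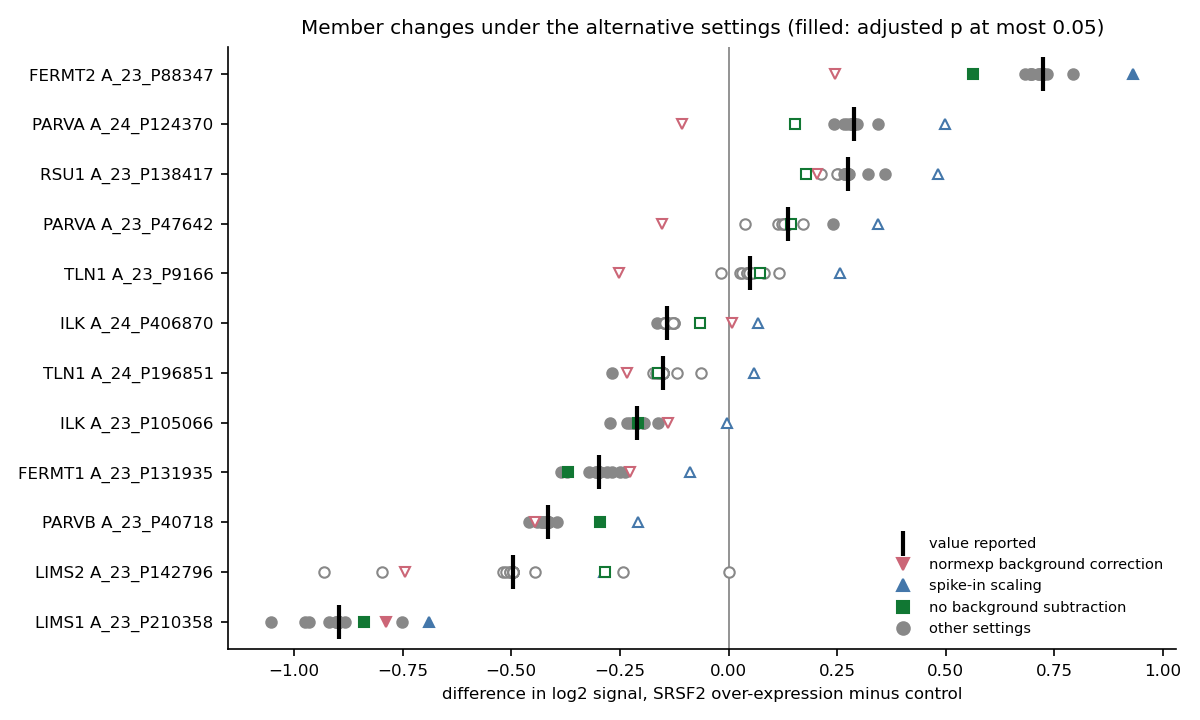
Difference in log2 signal, SRSF2 over-expression minus control, of the 12 member probes under 19 alternative settings, each marker being 1 setting, filled where the adjusted p is at most 0.05. Black ticks are the values reported. LIMS1 markers are filled throughout, the normexp markers of both PARVA probes lie below 0, and the spike-in markers of all 12 probes lie to the right of the values reported.

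For 3 members, 2 probes were bright enough on both conditions to be set against each other. The differences between the 2 probes of a gene were compared by an exact two-sided permutation test over all arrangements of the arrays, whose smallest p is 0.0022, adjusted over the 3 pairs. The change of ILK A_23_P105066 minus that of A_24_P406870 was -0.07 (exact p = 0.214, adjusted p = 0.214). PARVA A_23_P47642 differed from A_24_P124370 by -0.15 (exact p = 0.134, adjusted p = 0.201). TLN1 A_23_P9166 differed from A_24_P196851 by 0.20 (exact p = 0.0325, adjusted p = 0.0974). No pair passed after adjustment. On slides 1, 2 and 3 alone the TLN1 probes differed by 0.27, 0.10 and 0.24, the ILK probes by -0.19, 0.04 and -0.07 and the PARVA probes by -0.24, 0.16 and -0.37. With arrays rearranged within slides only, which cannot give a p below 0.0093, the exact p was 0.0741 for TLN1, 0.213 for ILK and 0.139 for PARVA (adjusted p = 0.208, 0.213 and 0.208).

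The wider adhesion machinery was described with a list of 36 genes, of which 35 had 61 probes on the arrays and 28 had the 45 probes tested. Of these 45, 27 passed limma (60.0%), 12 up and 15 down, beside the 57.7% of all probes. Of the 45, 43 were well above background on at least 5 arrays of both conditions, and 25 of these passed. The median difference of the 45 was -0.09. No probe of the members' homologs FERMT3, PARVG and TLN2 was bright enough to be tested.

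Of 8 probes of the integrin subunits, 2 passed, against the 57.7% of all probes. These were ITGA3 A_23_P55251, the laminin-binding alpha 3 chain, at -0.25 (SE 0.093, limma adjusted p = 0.0376), and ITGAV A_23_P381992 at 0.39 (SE 0.14, adjusted p = 0.0274), both named after their values were seen. ITGAV A_23_P50907, printed on 10 spots, differed by 0.05 (adjusted p = 0.420). ITGA3 lost its call in 8 of the 19 alternative settings, among them the methods' t-test (adjusted p = 0.0504) and the fit without slide 3 (0.258). ITGAV A_23_P381992 lost its call in 6, among them without slide 1 (0.0664) or slide 3 (0.268), and turned in direction in 1. No probe of ITGB1, the beta chain to which ILK and the kindlins bind, passed, the lowest adjusted p of its 3 probes being 0.0513.

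Of 10 probes of direct partners of PINCH, ILK, parvin and kindlin, 6 passed, and 5 of 9 when only probes bright in both conditions are counted (55.6%, 2 up and 3 down, against 57.4% of such probes overall). ARHGEF7 encodes beta-PIX, an exchange factor for Rac and Cdc42 that parvin binds, and has 2 probes assigned to different RefSeq transcripts. Probe A_23_P321855 fell by 0.39 (SE 0.050, limma adjusted p = 2.26e-05), from 0.26 to 0.33 in the control arrays to -0.24 to 0.0042 in the SRSF2 over-expression arrays. It lost this call with spike-in scaling (adjusted p = 0.564). Probe A_23_P417891 was well above background on 0 of 6 control arrays and 6 of 6 SRSF2 over-expression arrays. It entered the test through the SRSF2 over-expression arrays alone, so a difference followed from the filter and no p is given. By processed signal it was at least 4.37-fold higher in these arrays. That bound sets the bright mean against the higher, on each control array, of the probe's signal and the dimmest signal well above background. It holds for the processed signal only. The log2 difference was 1.36 without background subtraction and 0.46 with the normexp background correction, where it did not pass the test. FBLIM1 encodes migfilin, a filamin-binding partner of kindlin-2. Its probe A_23_P337934 fell by 0.77 (SE 0.11, limma adjusted p = 5.83e-05), without overlap of the conditions, and lost this call with normexp (adjusted p = 0.261). Probe A_24_P94222 fell by 0.44 (SE 0.13, adjusted p = 0.0097), with overlap.

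Of 27 probes of other focal adhesion proteins, 19 passed (70.4%), 8 up and 11 down, and 18 of 26 of those bright in both conditions (69.2%, against 57.4% overall). The tensin TNS3, which tethers integrin tails to actin, fell by 0.86 with A_24_P346431 (SE 0.048, limma adjusted p = 1.50e-08). Its other probe, A_23_P215642, read 0.95 lower and was well above background on 4 of 6 SRSF2 over-expression arrays. It entered the test through the control arrays alone, so a fall follows in part from the filter and no p is given. With normexp its difference was -0.72 and did not pass the test. ACTN1, the actin crosslinker alpha-actinin-1, fell by 0.76 with A_23_P105957 (SE 0.11, limma adjusted p = 6.14e-05). It lost this call with normexp (adjusted p = 0.140) and with spike-in scaling (0.0527). CRK and CRKL encode adaptors that pass signals on from phosphorylated docking proteins. CRK rose by 0.69 with A_23_P83556 (SE 0.084, adjusted p = 1.62e-05) and by 0.57 with A_24_P270814 (SE 0.072, adjusted p = 1.98e-05). With normexp these rises were 0.22 and 0.18, and neither passed (adjusted p = 0.596 and 0.619). CRKL A_23_P40535, well above background on 5 arrays of each condition, rose by 1.23 (SE 0.24, adjusted p = 0.00071), or 2.35-fold. Its difference was 0.58 without background subtraction and 0.0071 with normexp (adjusted p = 0.995). The other CRKL probe, A_24_P935009, well above background on 6 arrays of each condition, rose by 0.58 (SE 0.12, adjusted p = 0.00090), and its conditions overlapped. With the normexp background correction 3 of the 45 partner probes passed, where 11.6% of all probes did. With spike-in scaling 12 of 45 passed, where 26.8% of all probes did.

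**Figure D5:**
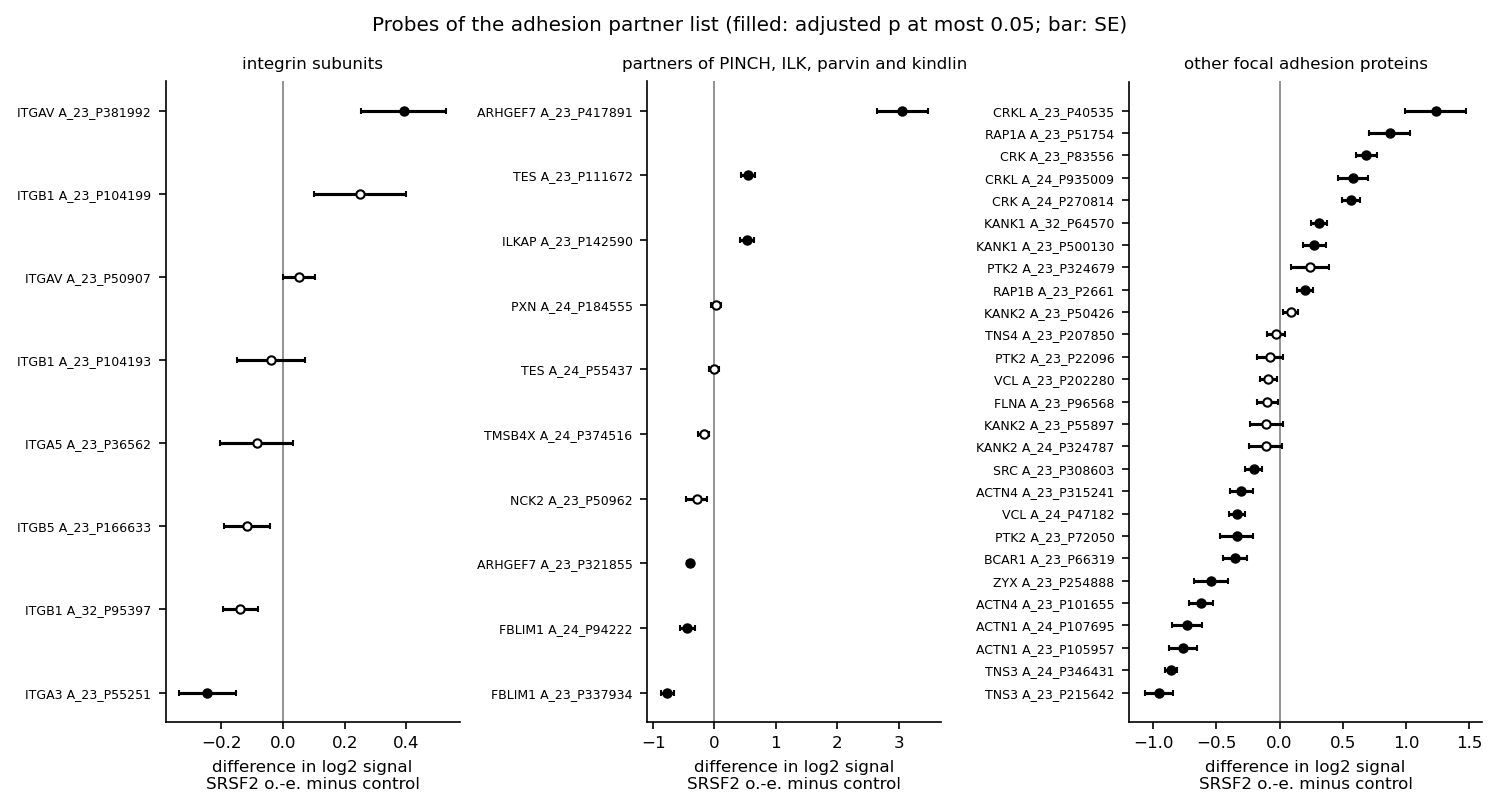
Difference in log2 signal, SRSF2 over-expression minus control, with its SE, for the 45 probes of the adhesion partner list that were tested, in 3 groups with separate x scales. Filled circles passed limma at an adjusted p of at most 0.05. TNS3 and ACTN1 lie lowest and CRKL A_23_P40535 highest among the other focal adhesion proteins. The ARHGEF7 probe at 3.06 entered the test through the SRSF2 over-expression arrays alone, and TNS3 A_23_P215642 through the control arrays alone.

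Several of the cell type markers moved with the conditions. The summed level of the 6 epithelial markers ran from 9.19 to 9.35 in the control arrays and from 8.90 to 9.08 in the SRSF2 over-expression arrays. The markers did not all move with this sum, in which KRT19 had the brightest probe (control median 8.72). KRT19 differed by -0.50 (limma adjusted p = 2.52e-05), CLDN4 by 0.37 (0.0033), EPCAM by 0.21 (0.0034) and KRT8 A_23_P14072 by 0.18 (0.0217). CDH1, the KRT18 probes and KRT8 A_24_P67395, which differed by 0.50 (0.0547), did not pass the test. The summed level of the 3 lung markers ran from 2.30 to 2.58 and from 2.57 to 2.98, the 2 NKX2-1 probes differing by 0.42 and 0.34. Vimentin (VIM), an intermediate filament of mesenchymal cells, differed by -0.58 and -0.28 with its 2 probes. Of the 4 mesenchymal markers on the arrays, VIM alone was well above background. Their summed level, which thus reads VIM, ran from 4.46 to 4.67 in the control arrays and from 4.03 to 4.17 in the SRSF2 over-expression arrays. The endothelial marker PECAM1 differed by -0.46, while CDH5 was well above background on no array, and the endothelial sum ran from -2.92 to -2.55 and from -3.43 to -3.08. The leukocyte sum ran from -2.08 to -1.78 and from -2.24 to -1.65, with overlap. Their part in the results was not tested.

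Genes outside the set whose pattern over the 12 arrays was most like that of LIMS3 were looked up among 14203 named probes well above background on all arrays. The 5 with the highest Pearson r were PPP1R3F (r = 0.998), EIF5 (0.997), RCOR3 (0.997), TBRG1 (0.997) and ADD1 (0.997). All 5 rose, by 0.94 (TBRG1) to 2.71 (EIF5). These r follow the difference between conditions, and the 12 points share slides and labelings. With the mean of each condition taken off, the r of these 5 probes ran from 0.32 to 0.66.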

How the data were processed

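The 12 arrays were grouped by the labels into 6 control and 6 SRSF2 over-expression arrays. The authors deposited, for each array, spot data from Feature Extraction 10.7.3.1, whose processed intensity is the background-subtracted signal of a spot, and a table of log2 values, which equals the log2 processed intensity minus the array's 75th percentile, centred on each probe. Annotation in the files is of build hg18, so none of their coordinates are given.

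From the processed intensities, outlier-flagged spots were dropped, log2 values averaged over the spots of a probe, and the 75th percentile over gene probes subtracted. Probes missing on over 25% of arrays were removed, as were those well above background on fewer than 5 of 6 arrays in both conditions, which left 24330 of 41000. Conditions were compared with limma 3.58.1 in R 4.3.3 without covariates, with Benjamini-Hochberg adjustment over all probes kept. Summaries and exact tests used Python 3.11.15 with numpy 2.4.6 and pandas 2.3.3. Of 25868 probes with a RefSeq accession, 23958 were named by the GRCh38.p14 gene table. Simulated data with known changes were used to check the fit.

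The members and lists were chosen with earlier results of these data known. The text names all member probes, SRSF2, the 8 partner probes of lowest adjusted p, partner probes past 2-fold, and the 5 genes most like LIMS3. Other probes of CRKL and FBLIM1 were added once the values had been seen. The 19 alternatives changed the scaling, the background correction, the filter on dim probes, the outlier flags, the test, the block or replicate unit, or the arrays used, or took the authors' table. The mean spot intensity is not among the columns used here, so the median stood in for it in the normexp setting (offset 50) and in the setting without background subtraction. Arrays with the same label number deviated together from their condition means (r from 0.28 to 0.64 over 6 pairs), as did other arrays of one slide (0.33 to 0.65), while arrays of different slides did not (-0.48 to -0.05), so the numbers pair the arrays through the slide. The number of arrays limits the precision.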

Additional observations from a re-analysis of the deposited data

Results flagged for a closer look

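Dixon's test for a single distant value was applied to the 2 conditions of the 13 member probes tested and of the SRSF2 probe, 28 groups of 6 arrays in all. Chance flags about 1 group in 20. For LIMS2 A_23_P142796, control array 4 read -0.87 where the other 5 control arrays read -4.23 to -3.08, a gap of 0.659 of the range, above Dixon's critical value for 6 values. For ILK A_24_P406870, control array 2 read 0.73 where the other 5 read 0.88 to 0.94, a gap of 0.709 of the range.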

How the results depend on the processing

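LIMS1 kept its direction and its call under all 19 settings. The count of member probes past the test moved from 8 to 1 with normexp and 2 with spike-in scaling. It was 5 without background subtraction and 5 with arrays averaged by slide. Of all probes, 11.6%, 26.8%, 50.9% and 39.0% passed in these 4 settings, against 57.7% before. The count past 2-fold moved from 0 to 1 (LIMS1) without the 2 arrays of highest background (control arrays 5 and 6). Of all 24330 probes, 1700 were past 2-fold there. The count of partner probes past the test moved from 27 to 3 with normexp and 12 with spike-in scaling, beside the same shares of all probes. It stayed within 1.5 times otherwise. SRSF2 stayed between -1.49 and -1.25 and past the test. Direction turned with normexp for ILK A_24_P406870 (0.0091), PARVA A_23_P47642 (-0.15), PARVA A_24_P124370 (-0.11), TLN1 A_23_P9166 (-0.25), ITGAV A_23_P381992 (-0.28) and the TLN1 pair of probes (-0.019). It turned with spike-in scaling for ILK A_24_P406870 (0.068) and TLN1 A_24_P196851 (0.058), without slide 2 for TLN1 A_23_P9166 (-0.017), and without control array 4, which was added once the values had been seen, for LIMS2 (0.00077). The cause was not tested. With the replicate number as a block, 8 of 12 member probes passed, none past 2-fold, and 29 of 45 partner probes, where 65.8% of all probes did, and SRSF2 differed by -1.46. With the slide as a block these counts were 8 and 30, where 70.1% of all probes passed. The within-slide arrangements for pairs of probes were also added once the values had been seen. Neither block changed the call of any member probe. For probes near background (LIMS2, LIMS3 in the control arrays), signal over background limits the size of a change.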
